A study of Mus musculus with 6 samples.

Results

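The genes described here encode the nuclear subunits of the mitochondrial respiratory chain and of the ATP synthase, measured in bone marrow-derived macrophages. They were taken by symbol from the probe sets of an expression array that carry exactly 1 gene symbol. The symbols begin with Nduf, Uqcr, Atp5 or Cox4 to Cox8, or are Sdha, Sdhb, Sdhc, Sdhd, Cycs or Cyc1. This gave 90 of the 18820 tested genes, each represented by its probe set of highest mean. Complex I held 43 of them, complex II 4, complex III 8, complex IV 17 and complex V 17, and cytochrome c (Cycs) stood apart as 1. Of the 43 complex I symbols, 36 were subunits or subunit paralogues and 7 were assembly factors (Ndufaf genes), which build the complex but are not part of it.

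Macrophages came from male mice of 12 to 16 weeks, 3 samples from wild-type animals (WT) and 3 from animals with a knockout of Gps2 (GPS2KO), with 1 array each. Marrow from tibia and femur was grown for 7 days in medium with 30% L929-conditioned supernatant, a source of macrophage growth factor, and no stimulus was given to either group. The labels call the knockout a macrophage knockout (MKO) but give neither the deleted part of the gene nor the driver of the deletion, and they do not tie each array to its own animal. The p-values therefore reflect variation from array to array, part or all of which may be technical.

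GPS2 works in the nucleus with the corepressors NCOR and SMRT and the deacetylase HDAC3, and in fat cells it has also been described as acting on nuclear genes for mitochondrial proteins. The respiratory chain lies in the inner mitochondrial membrane. Complexes I and II feed electrons from NADH and succinate to coenzyme Q, complex III passes them to cytochrome c, and complex IV hands them to oxygen. Complexes I, III and IV pump protons, and complex V, the ATP synthase, lets the protons flow back and makes ATP. In macrophages, the balance between this pathway and glycolysis shifts with activation. Most subunits are encoded in the nucleus. The 13 subunits encoded in mitochondrial DNA were not analysed here.

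Promoters are shown for the pair of genes whose signal fell (Cox7a1 and Ndufaf3), for the isoform that stands in for COX7A1 in most tissues (Cox7a2) and for a pair of genes that did not pass and that carry a site of the factor NRF1 (Sdha and Cycs). NRF1, nuclear respiratory factor 1, and the ETS factor GABP are known activators of respiratory chain genes. Each sequence is the RefSeq promoter of build GRCm38.p6 with 250 bases before and 50 after the annotated start, read 5′ to 3′ along the gene. The Cox7a1 window is chr7:30183921-30184220 on the plus strand and the Cox7a2 window chr9:79759804-79760103 on the minus strand. Ndufaf3 lies at chr9:108567387-108567686 on the minus strand, Sdha at chr13:74350191-74350490 on the minus strand and Cycs at chr6:50566520-50566819 on the minus strand. Capitals mark matches to the NRF1 core CGCANGCG or to a longer NRF1 form, GCGC followed by any 2 bases and GCGC.
Cox7a1: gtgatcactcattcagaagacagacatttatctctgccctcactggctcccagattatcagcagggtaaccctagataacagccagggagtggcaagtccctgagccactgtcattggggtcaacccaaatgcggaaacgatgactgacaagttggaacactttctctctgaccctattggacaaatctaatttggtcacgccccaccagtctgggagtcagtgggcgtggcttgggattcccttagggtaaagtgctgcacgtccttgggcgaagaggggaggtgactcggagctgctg
Cox7a2: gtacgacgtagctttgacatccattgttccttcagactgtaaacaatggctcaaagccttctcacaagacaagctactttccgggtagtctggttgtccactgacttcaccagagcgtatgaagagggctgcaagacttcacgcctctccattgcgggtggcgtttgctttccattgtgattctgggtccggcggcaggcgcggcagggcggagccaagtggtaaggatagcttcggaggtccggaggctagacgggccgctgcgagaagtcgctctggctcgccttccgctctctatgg
Ndufaf3: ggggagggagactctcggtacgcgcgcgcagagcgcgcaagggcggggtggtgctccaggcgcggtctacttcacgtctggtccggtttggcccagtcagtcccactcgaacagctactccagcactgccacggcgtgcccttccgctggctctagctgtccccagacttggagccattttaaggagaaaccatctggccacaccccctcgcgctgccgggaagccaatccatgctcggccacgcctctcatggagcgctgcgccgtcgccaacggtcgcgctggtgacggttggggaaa
Sdha: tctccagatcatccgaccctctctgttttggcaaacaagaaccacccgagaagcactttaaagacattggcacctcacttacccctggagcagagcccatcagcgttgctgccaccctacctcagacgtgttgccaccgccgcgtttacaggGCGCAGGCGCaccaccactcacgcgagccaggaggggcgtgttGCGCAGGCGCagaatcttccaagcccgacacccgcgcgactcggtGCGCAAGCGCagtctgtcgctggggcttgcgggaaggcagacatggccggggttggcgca
Cycs: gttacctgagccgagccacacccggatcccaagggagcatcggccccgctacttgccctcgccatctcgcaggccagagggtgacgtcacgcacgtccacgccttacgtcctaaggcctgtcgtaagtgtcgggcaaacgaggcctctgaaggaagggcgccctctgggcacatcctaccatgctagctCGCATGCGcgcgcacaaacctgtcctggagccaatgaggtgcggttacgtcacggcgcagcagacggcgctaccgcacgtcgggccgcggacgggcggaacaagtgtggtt

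Both strands were searched for the NRF1 core CGCANGCG, the longer form, which can overlap it, the ETS letters CCGGAAG, the interferon-response letters (GAAA, any 2 bases, GAAA) and the E-box CACGTG. A promoter was found for 74 of the 90 genes, 79 promoters in all because 5 genes have more than 1. The NRF1 core stood in 33 of these 79 promoters (41.8%), against 12.1% of the 18141 promoters of tested genes and 8.21% of all 32851 promoters in the table. By complex it stood in 15 of 40 promoters of complex I, 2 of 3 of complex II, 3 of 5 of complex III, 1 of 12 of complex IV and 11 of 18 of complex V. The longer form stood in 27.8% of the promoters, against 9.36% of those of tested genes. The ETS letters stood in 22.8%, against 12.1%. The interferon-response letters (2.53% against 3.27%) and the E-box (8.86% against 8.31%) were near the background.

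The Sdha promoter above held 3 NRF1 matches, whose cores begin at positions -97, -54 and -9 from the start, and the Cycs promoter held 1, at position -61. None of the 5 motifs occurred in the printed windows of Cox7a1, Cox7a2 or Ndufaf3. The 30 genes with an NRF1 core had changes from -0.12 to 0.04 on the log2 scale with a median of -0.03, and the 44 genes without it had changes from -0.50 to 0.09 with a median of -0.03. The 18 genes with the ETS letters had a median of -0.06 and the other 56 one of -0.03. A match is a stretch of letters and was not tested as a binding site.

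Values are log2 intensities as deposited, so a difference of 1 is a doubling of signal, and the change of a gene is the GPS2KO mean minus the WT mean. A gene is called dim below the 40th percentile of the gene means, 5.49. Pearson correlations across genes were 0.9989 to 0.9991 within groups and 0.9977 to 0.9981 between them. Gps2 itself gave 10.943, 10.931 and 11.002 in WT and 10.289, 10.164 and 10.187 in GPS2KO samples. It fell by 0.75 (SE 0.0472; limma adjusted p = 0.000256), and its exact 2-sided permutation p of 0.1 is the lowest value that 3 against 3 samples can reach. All 8 macrophage markers (Adgre1, Cd68, Csf1r, Fcgr1, Mertk, Cd14, Lyz2 and Itgam) were above the dim limit, and 2 of them rose in GPS2KO: Mertk by 0.24 (adjusted p = 0.00991) and Itgam by 0.19 (adjusted p = 0.0279). The groups were separated for 6 of the 8, of which 5 were higher in GPS2KO. Of all tested genes 27.1% were separated, and of the 11292 that are not dim 4211 were. The part of these marker differences in the changes below was not tested.

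Among the 90 genes, 2 fell in GPS2KO macrophages and 0 rose, while 88 did not pass an adjusted p of 0.05. The genes that fell were Cox7a1, the heart and muscle isoform of a cytochrome c oxidase subunit, and Ndufaf3, an assembly factor of complex I. Over all tested genes, 6.72% passed, 3.83% fell and 2.9% rose, so the 2 falls among 90 genes lie below the background share of falls. Without adjustment, 13 of the 90 genes had p under 0.05 in limma, all lower in GPS2KO. Of all 18820 tested genes 20.8% reached that level, 2234 of them lower and 1672 higher. Of the 11292 that are not dim, 1880 reached it lower and 1360 higher. With a variance model that follows the signal level (limma's trend option), 8 of the 90 fell and 0 rose, against 11.6% of all genes called and 6.63% fallen. These 8 were Cox7a1, Ndufaf3, Ndufaf1, Ndufs3, Sdhb, Sdhc, Atp5c1 and Atp5j2. Only 4 of the 90 genes are dim. Of the 11292 tested genes that are not dim, 684 fell in the main fit and 1201 with the trend. The 2 and 8 falls among the 90 genes lie below those shares.

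The changes were small and leaned downward. The mean was lower in GPS2KO for 64 of the 90 genes, where it was lower for 53.6% of all tested genes. Changes ran from -0.50 to 0.09, with a median of -0.03 against -0.01 over all tested genes. By complex the medians were -0.04 for complex I, -0.05 for complex II, -0.02 for complex III, -0.03 for complex IV and -0.02 for complex V. Centring each array on its own median moved the median of the 90 genes to -0.058 with 77 of them lower, and that of all tested genes to -0.032 with 64.1% lower. Centring also raised the share of falls among all called genes from 56.9% to 69.8%. Without WT replicate 1 the median of the 90 genes was -0.013, with 54 of them lower. For 21 of the 90 genes the groups were fully separated, 18 of them lower and 3 higher in GPS2KO. Of all tested genes 27.1% were separated, 15.2% lower and 11.9% higher. Of the 11292 tested genes that are not dim, 4211 were separated, 2395 lower and 1816 higher.

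The intervals bound what these arrays can show. For 79 of the 90 genes the 95% confidence interval of the change lay inside 1.2-fold in either direction. The same held for 75.3% of all tested genes and for 8326 of the 11292 that are not dim. Of the 88 genes that did not pass, 9 had intervals reaching beyond 1.2-fold, each on the lower side. The widest reach was that of Ndufaf1, down to -0.42, a 1.34-fold decrease. The highest upper bound was 0.24, that of Ndufaf6, a 1.18-fold increase. The median SE was 0.044 for the 90 genes and 0.052 over all tested genes.

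**Figure D1:**
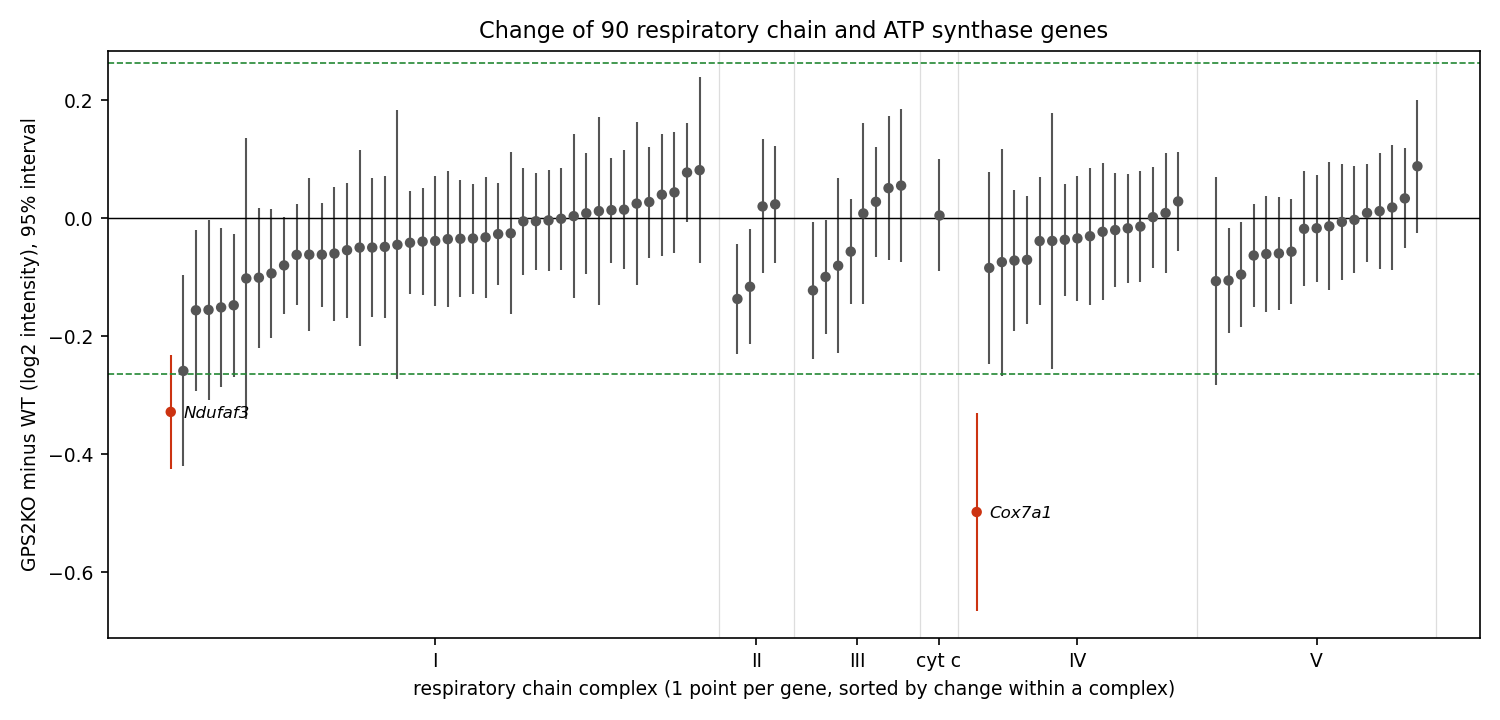
Change of each of the 90 genes (GPS2KO minus WT, log2 intensity, y axis) with its 95% confidence interval from limma, sorted by size within each complex (x axis); dashed lines mark 1.2-fold in either direction. Cox7a1 at -0.50 and Ndufaf3 at -0.33, in red, are the genes past the threshold, and most other intervals lie between the dashed lines.

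The same lean was seen in the median over genes on single arrays. Each gene was set to its mean over the 6 arrays, and the median deviation over the 90 genes was 0.032, -0.004 and 0.023 in WT and -0.001, -0.03 and -0.022 in GPS2KO. WT replicate 2 therefore lay below GPS2KO replicate 1, and the groups overlapped. Replicate 1 was highest and replicate 2 lowest in both groups, and GPS2KO was lower than WT within each replicate number. Whether the numbers pair the samples is not known. Over all tested genes these medians ran only from -0.009 to 0.009. Complex II had 0.06, -0.002 and 0.046 in WT and -0.01, -0.043 and -0.017 in GPS2KO, without overlap. Complex V had 0.027, 0.009 and 0.025 against -0.006, -0.037 and -0.011, also without overlap. In complexes I, III and IV the groups overlapped. No test was made of these medians.

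**Figure D2:**
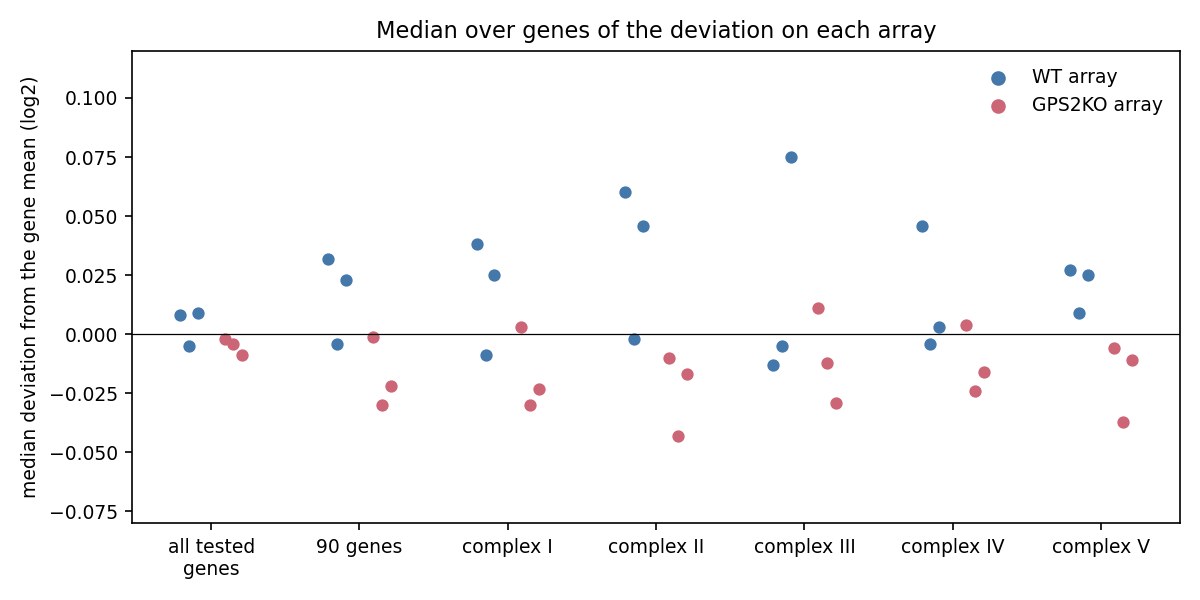
Median deviation from the gene mean (log2 intensity, y axis) on each of the 3 WT and 3 GPS2KO arrays, for all tested genes, the 90 genes and each complex (x axis). The highest WT point is 0.075, in complex III, and the groups overlap in complexes I, III and IV.

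Complex I takes electrons from NADH through an arm in the matrix to coenzyme Q and pumps protons in its membrane arm. Among its 36 subunits and subunit paralogues, 0 passed. The 8 genes of the electron input arm (N module) ran from -0.08 to 0.08. Ndufv1, the flavoprotein that binds NADH, measured 10.148, 10.151 and 10.165 in WT and 10.074, 10.091 and 10.059 in GPS2KO, a change of -0.08 (95% interval -0.16 to 0.0027, adjusted p = 0.258, limma). Ndufs1, an iron-sulphur subunit next to it, measured 9.425, 9.397 and 9.419 in WT and 9.511, 9.483 and 9.481 in GPS2KO, a change of 0.08 (adjusted p = 0.276). Neither pair of groups overlapped, and the changes of these neighbouring subunits had opposite signs.

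All 7 genes of the quinone arm (Q module), where electrons reach coenzyme Q, had lower means in GPS2KO, from -0.15 to -0.03. Ndufs3, a core subunit of that arm, measured 10.697, 10.559 and 10.698 in WT and 10.537, 10.451 and 10.524 in GPS2KO. The groups did not overlap, and the change of -0.15 (SE 0.0519) had adjusted p = 0.157, or 0.0346 with the variance trend. Its other probe set differed by -0.10. The 19 genes of the membrane arm ran from -0.16 to 0.03. The lowest were Ndufb7 (-0.16, adjusted p = 0.184) and Ndufb2 (-0.16, adjusted p = 0.235), accessory subunits of the far end of the arm. Ndufa4, long listed with complex I and now placed with complex IV, differed by 0.04 (adjusted p = 0.671). Its paralogue Ndufa4l2, which is induced by hypoxia, was dim and differed by 0.01 (adjusted p = 0.944).

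The 7 assembly factors of complex I spread more widely than its subunits, from -0.33 to 0.08. Ndufaf3 encodes a factor for the quinone arm. It measured 10.019, 9.936 and 10.027 in WT and 9.688, 9.664 and 9.647 in GPS2KO, so every GPS2KO array lay below every WT array. The means were 9.99 ± 0.05 and 9.67 ± 0.02 (SD, n = 3 each). Ndufaf3 fell by 0.33 (SE 0.0415, 95% interval -0.42 to -0.23, adjusted p = 0.00373), to 79.7% of the WT signal. The call held with any 1 array left out, at changes of -0.357 to -0.312 and adjusted p up to 0.021.

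Ndufaf1, a factor for the membrane arm, measured 8.848, 8.768 and 8.57 in WT and 8.461, 8.468 and 8.482 in GPS2KO. WT replicate 3 lay closest to the GPS2KO arrays, though the groups did not overlap. The change of -0.26 (SE 0.0695) had adjusted p = 0.0723, but 0.0128 without WT replicate 3, 0.0174 with the variance trend and 0.0378 without dim genes. Ndufaf7, a methyltransferase that acts on a complex I subunit, differed by -0.15 (adjusted p = 0.192). Ndufaf2, Ndufaf4, Ndufaf5 and Ndufaf6 lay between 0.00 and 0.08, with adjusted p from 0.556 to 0.98.

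Ndufaf3 was set beside its neighbours in the RefSeq gene order, a step chosen after its values were seen. Of the 6 tested genes nearest to it, Wdr6 fell by 0.20 (adjusted p = 0.0294). The call survived leaving out GPS2KO replicate 3 (0.0488) but no other array, with adjusted p up to 0.107. The other 5 (Usp19, Qars, Qrich1, Mir191 and Mir425) did not pass and lay between -0.02 and 0.22.

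Complex II, succinate dehydrogenase, is the chain's link to the citric acid cycle and consists of 4 subunits, all encoded in the nucleus. None of them passed. Sdhc, a membrane anchor, measured 11.427, 11.395 and 11.472 in WT and 11.329, 11.278 and 11.277 in GPS2KO, without overlap. Its change was -0.14 (95% interval -0.23 to -0.04, adjusted p = 0.0948), with adjusted p = 0.00712 under the variance trend and 0.0381 without dim genes. Sdhb, the iron-sulphur subunit, measured 10.718, 10.746 and 10.819 in WT and 10.643, 10.623 and 10.669 in GPS2KO, a change of -0.12 (adjusted p = 0.168, and 0.0377 with the variance trend). Sdha, the flavoprotein that oxidises succinate, differed by 0.02 (95% interval -0.08 to 0.12), and Sdhd, the other anchor, by 0.02 (95% interval -0.09 to 0.13). The groups of both overlapped, and their intervals include small changes either way.

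**Figure D3:**
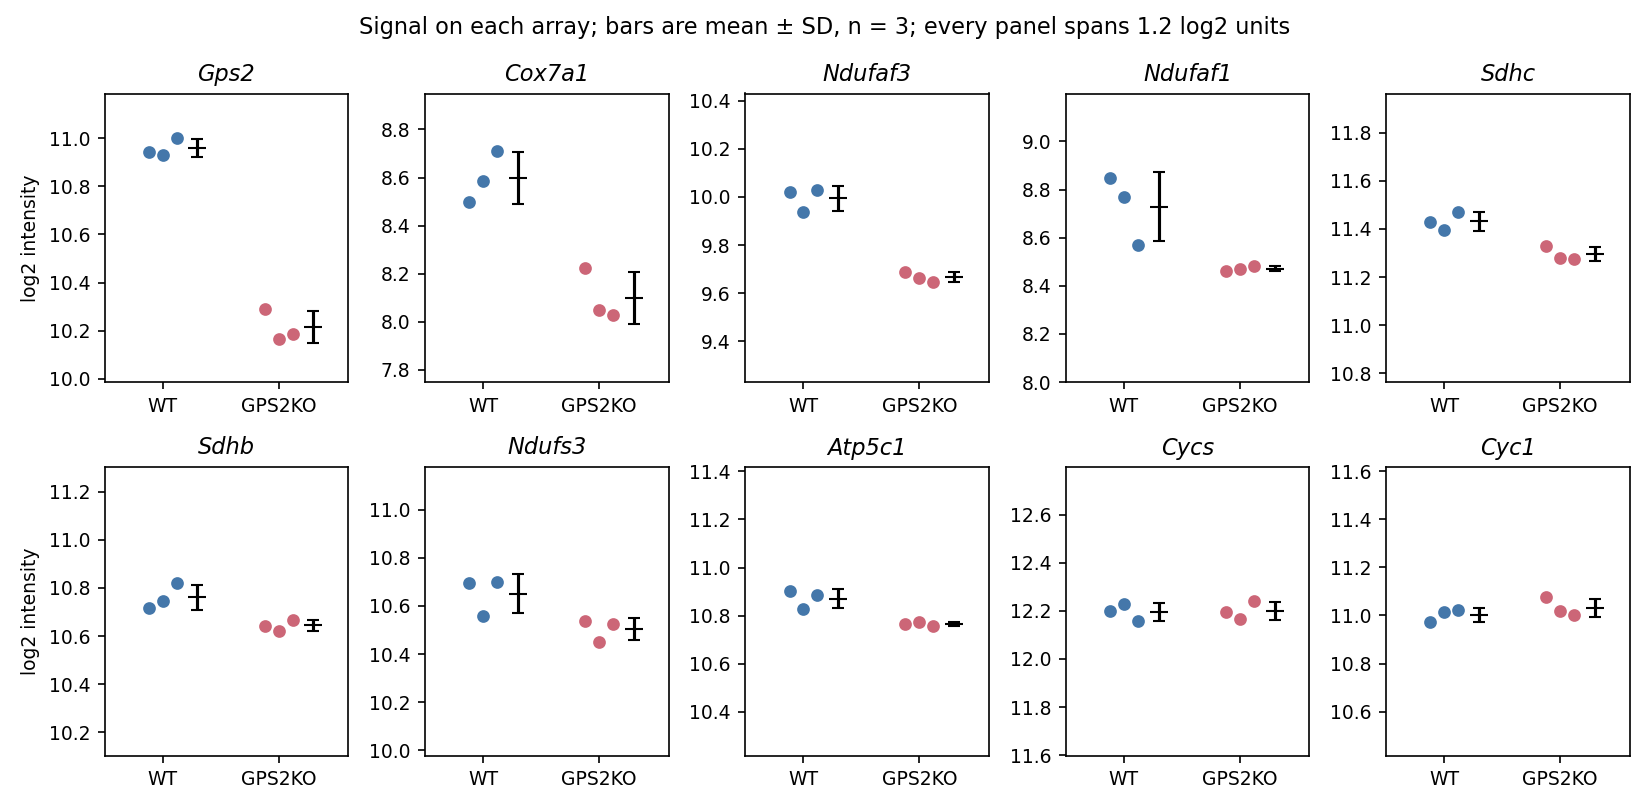
Log2 intensity (y axis) on each WT (blue) and GPS2KO (red) array for Gps2 and 9 of the 90 genes, with mean ± SD (n = 3); every panel spans the same range of log2 units. Gps2, Cox7a1 and Ndufaf3 show the widest separation, Ndufaf1, Sdhc, Sdhb, Ndufs3 and Atp5c1 a narrow one, and the groups of Cycs and Cyc1 overlap.

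Complex III carries electrons from coenzyme Q to cytochrome c. None of its 8 genes passed, and 4 had lower and 4 higher means in GPS2KO. The redox subunits were Cyc1, cytochrome c1, which differed by 0.03 (95% interval -0.07 to 0.12, adjusted p = 0.751), and Uqcrfs1, the Rieske iron-sulphur protein, which differed by 0.05 (95% interval -0.07 to 0.17, adjusted p = 0.642). The lowest changes belonged to small subunits. Uqcr11 measured 10.616, 10.754 and 10.752 in WT and 10.613, 10.59 and 10.552 in GPS2KO, a change of -0.12 (adjusted p = 0.217). Its other probe set differed by only -0.03. Uqcrh, the hinge protein, differed by -0.10 (adjusted p = 0.228), and the core protein Uqcrc1 by -0.06 (adjusted p = 0.463). Cycs, the soluble carrier between complexes III and IV and a trigger of cell death when released, measured 12.199, 12.229 and 12.157 in WT and 12.194, 12.168 and 12.241 in GPS2KO. Its groups overlapped, and the change of 0.01 had a 95% interval of -0.09 to 0.10 (adjusted p = 0.957).

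Complex IV, cytochrome c oxidase, reduces oxygen to water, and several of its subunits exist as isoforms tied to a tissue. Cox7a1 is the isoform of heart, skeletal muscle and brown fat. It measured 8.498, 8.587 and 8.71 in WT and 8.224, 8.05 and 8.027 in GPS2KO, all GPS2KO values lying below all WT values. The means were 8.60 ± 0.11 and 8.10 ± 0.11 (SD, n = 3 each). Cox7a1 fell by 0.50 (SE 0.0722, 95% interval -0.67 to -0.33, adjusted p = 0.00702), a 1.41-fold decrease to 70.8% of the WT signal. Leaving out any 1 array kept the call, at changes of -0.559 to -0.442 and adjusted p up to 0.0332. In size of change Cox7a1 ranked 232 among the 18820 tested genes, and Ndufaf3 ranked 592.

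Cox7a2, the isoform of most tissues, measured 10.583, 10.581 and 10.599 in WT and 10.606, 10.6 and 10.644 in GPS2KO, a change of 0.03 (95% interval -0.06 to 0.11, adjusted p = 0.714). The changes of the isoforms differed by -0.53, and an exact 2-sided permutation test of that difference gave p = 0.1, the lowest this design can reach. This test was not among the planned ones. Cox7a1 had already passed with separated groups and Cox7a2 varied little, so the test could hardly give another value and adds no support. Cox7a2l, a relative that joins complexes into supercomplexes, differed by -0.03 (adjusted p = 0.791), and its other probe set by -0.08. These genes are related in sequence, and signal shared between their probes was not tested.

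The other isoforms of complex IV did not pass. Cox4i2, the isoform of lung that is induced by low oxygen, measured 6.376, 6.263 and 6.288 in WT and 6.314, 6.287 and 6.074 in GPS2KO, a change of -0.08 (95% interval -0.25 to 0.08), while Cox4i1 differed by -0.07 (95% interval -0.19 to 0.05). Cox6a2 of heart and muscle differed by -0.07 and Cox6a1 by -0.03. Cox6b2 of testis differed by -0.04 and Cox6b1 by -0.04. Cox8a, the common form, differed by -0.04, and the muscle form Cox8b, the testis form Cox8c and Cox7b2 were dim, with changes of -0.02, -0.07 and -0.02. The adjusted p of these isoforms lay between 0.453 and 0.864. All 9 widely expressed subunits of the complex lay between -0.07 and 0.03, with every interval inside 1.2-fold.

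**Figure D4:**
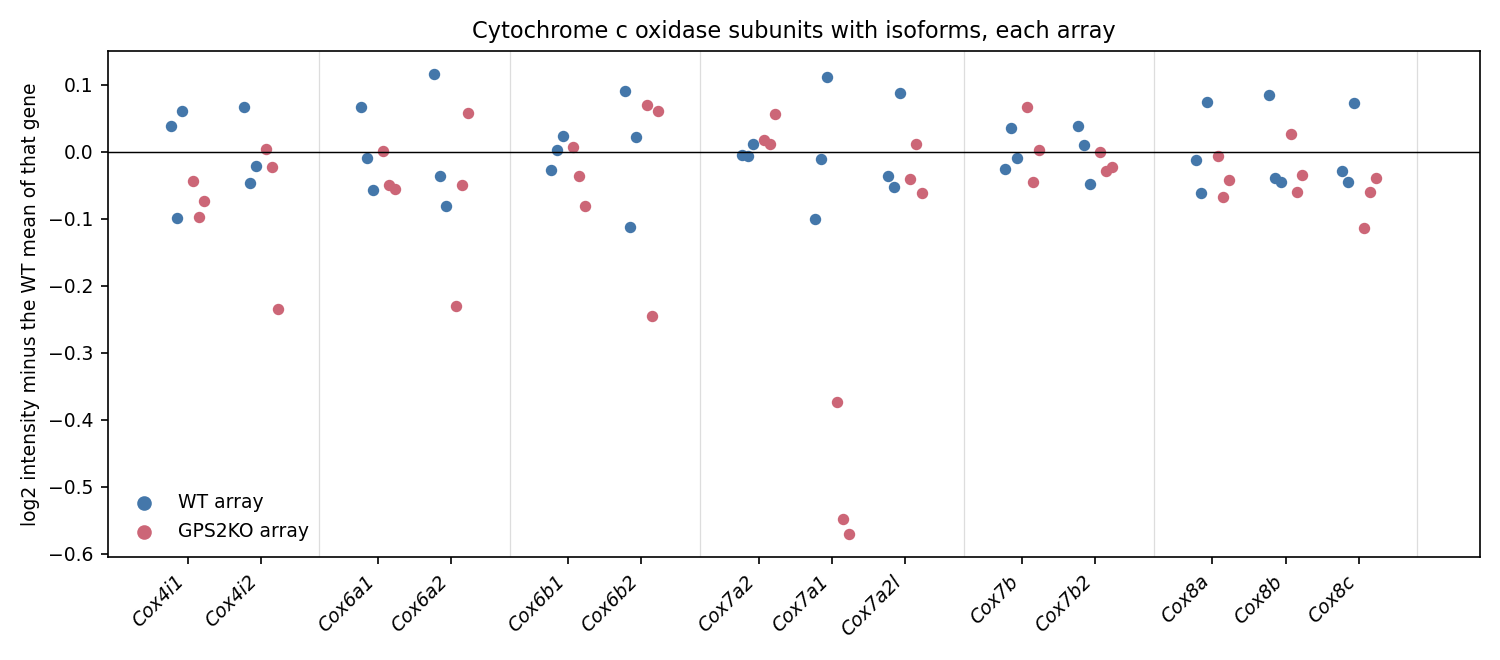
Log2 intensity minus the WT mean of the same gene (y axis) on each WT (blue) and GPS2KO (red) array for cytochrome c oxidase subunits grouped with their isoforms (x axis). The 3 GPS2KO arrays of Cox7a1 lie below all its WT arrays, and the points of the other genes scatter around 0.

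Cox7a1 is known from tissues other than macrophages, so markers of other cell types were read beside it. Of 5 tested markers of skeletal and cardiac muscle, 2 of them dim, 0 passed. Their summed linear signal was 331.7 to 340.3 in WT and 310.1 to 329.1 in GPS2KO, without overlap. Acta1, the brightest (WT mean 7.57, change -0.06), weighs most in that sum, and Ckm and Myh4 had higher means in GPS2KO. The 5 adipocyte markers (Adipoq, Plin1, Cidec, Lep and Ucp1) were all dim and 0 passed. Their sum was 126.7 to 132.3 in WT and 119.0 to 125.8 in GPS2KO, also without overlap, though Ucp1 had a higher mean in GPS2KO. Of 8 fibroblast and stromal markers 3 fell and 1 rose. Pdgfrb fell by 0.28, Thy1 by 0.30 and Col1a1 by 0.20, and Dcn rose by 0.30, with adjusted p of 0.00675, 0.0165, 0.0225 and 0.0334. The summed signal of that list was 10000 to 10585 in WT and 9045 to 9171 in GPS2KO, the groups not overlapping. Col1a1, Col1a2 and Pdgfrb, the brightest of that list, weigh most in its sum. Lum and Pdgfra, like Dcn, had higher means in GPS2KO. Of 5 B cell markers, 3 of them dim, Cd79b fell by 0.46 (adjusted p = 0.00373). The sum was 767.1 to 829.4 in WT and 670.4 to 696.5 in GPS2KO, without overlap. Ebf1, the brightest (WT mean 9.21), weighs most in that sum and differed by -0.20 (adjusted p = 0.0542). Cd79a and Pax5 had higher means in GPS2KO. Among osteoclast markers Ocstamp fell by 0.68 and Ctsk rose by 0.47. Itgax of the dendritic cell list rose by 1.00, Cd4 of the T and NK cell list by 0.43 and Tfrc of the erythroid list by 0.41. The sums of these lists were higher in GPS2KO, without overlap. The osteoclast sum was 870.6 to 915.05 in WT and 962.5 to 1009.06 in GPS2KO. The dendritic cell sum was 403.5 to 469.0 against 661.8 to 782.8. That of T and NK cells was 568.2 to 579.3 against 694.8 to 742.8, and the erythroid one 660.9 to 726.1 against 846.7 to 959.2. The macrophage sum was also higher, 41434.3 to 42703.9 in WT and 43224.1 to 43373.5 in GPS2KO. None of 8 neutrophil and 6 mast cell and basophil markers passed, and the sums of both lists overlapped between the groups. The part of these markers in the fall of Cox7a1 was not tested, and fewer cells of a type cannot be told from less RNA per cell in such samples. Of the 6 tested genes nearest to Cox7a1 in the RefSeq order 0 passed, with changes from -0.17 (Polr2i) to 0.13 (Gm5113).

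Complex V uses the proton gradient to make ATP, with a catalytic F1 head, a rotating ring of c subunits and a peripheral stalk. None of its 17 genes passed. In the F1 head the subunits Atp5a1 and Atp5b differed by 0.01 each (adjusted p = 0.908 and 0.921). Atp5c1, the central shaft, measured 10.901, 10.827 and 10.884 in WT and 10.766, 10.774 and 10.757 in GPS2KO, without overlap, a change of -0.11 (95% interval -0.19 to -0.02, adjusted p = 0.169, and 0.0355 with the variance trend). Atp5e, a small subunit at the foot of the shaft, had the highest change of the 90 genes, 0.09 (95% interval -0.02 to 0.20, adjusted p = 0.364). GPS2KO replicate 3 of Atp5e, at 9.812, lay just below the WT arrays (9.815 to 9.82), whereas the other GPS2KO arrays were at 9.955 and 9.949.

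The 4 genes of the peripheral stalk ran from -0.06 to 0.02. The c ring is encoded by Atp5g1, Atp5g2 and Atp5g3, which make the same mature protein. They differed by -0.02, -0.06 and -0.06 (adjusted p = 0.86, 0.475 and 0.48), and the 3 further probe sets of Atp5g1 and Atp5g2 differed by -0.03 to -0.07. Among the other membrane subunits, Atp5j2 measured 11.748, 11.716 and 11.774 in WT and 11.681, 11.641 and 11.629 in GPS2KO. Its groups did not overlap, and the change of -0.10 had adjusted p = 0.214, or 0.0308 with the variance trend. Atp5k differed by -0.11 (adjusted p = 0.491).

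Many of these genes have processed pseudogene copies, and 24 of the 90 had several probe sets, 34 in addition to those used above. When the 21218 probe sets with 1 symbol were tested together, 0 of these 34 passed in limma, and 28 had the same sign as the probe set used for the gene. Their changes ran from -0.15 (Ndufa11) to 0.17 (Ndufb5), with a median of -0.02. Cox7a1 and Ndufaf3 had 1 probe set each, so their falls have no second probe set behind them.

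Genes that serve the chain without being part of it were counted from lists, whose choice is described with the processing. These counts are to be read beside the shares over all tested genes. Of those 6.72% passed, 3.83% fell and 2.9% rose, and 53.6% had a lower mean in GPS2KO. Of 39 tested assembly factors outside the Ndufaf family, 2 fell and 1 rose, with a median of -0.05. Lyrm7, an assembly factor for the Rieske protein of complex III, measured 6.782, 6.644 and 6.671 in WT and 6.036, 6.006 and 6.006 in GPS2KO. It fell by 0.68 (SE 0.0468, adjusted p = 0.000316), to 62.3% of the WT signal. Tmem126b, a factor for the membrane arm of complex I, measured 8.864, 8.882 and 8.867 in WT and 9.368, 9.237 and 9.206 in GPS2KO, and rose by 0.40 (SE 0.0502, adjusted p = 0.00368). Neither gene's groups overlapped, and both calls held with any 1 array left out (adjusted p up to 0.00301 and 0.0192). Higd1a, a hypoxia-induced partner of complex IV, fell by 0.26 (adjusted p = 0.0396). That call held without WT replicate 1 and was lost without any of the other arrays (adjusted p up to 0.123).

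The client of Lyrm7, the Rieske protein gene Uqcrfs1, differed by 0.05, as given above. None of the 12 tested genes of coenzyme Q synthesis passed (median -0.05). The lowest p there belonged to Coq8a (-0.17, adjusted p = 0.0764), Coq6 (-0.15, 0.127) and Coq9 (-0.13, 0.17). None of 17 genes of mitochondrial biogenesis and DNA maintenance passed either (median -0.03). Esrra, the nuclear receptor ERR alpha that drives respiratory genes, measured 8.122, 8.105 and 8.221 in WT and 7.953, 7.976 and 8.004 in GPS2KO, without overlap. Its change was -0.17 (adjusted p = 0.066), and it passed after median centring (0.0353) and without dim genes (0.0276). Tefm, which helps transcribe mitochondrial DNA, differed by -0.11 (adjusted p = 0.197), and Ppargc1b, a co-activator of ERR alpha, by 0.11 (0.225).

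Of 18 genes of the citric acid cycle and pyruvate entry, 1 fell and 0 rose (median -0.04). Pcx, pyruvate carboxylase, fell by 0.29 (adjusted p = 0.0345), which held without GPS2KO replicate 1 and was lost without any of the other arrays (adjusted p up to 0.119). The pyruvate carrier Mpc1 differed by 0.15 (adjusted p = 0.0709), but by 0.26 with the mean of its probe sets (adjusted p = 0.0112), and it passed with the variance trend (0.00371) and without dim genes (0.0275). The dehydrogenase subunit Dld differed by 0.14 (adjusted p = 0.1). Of 23 genes of protein import, 1 rose and 1 fell (median -0.02). Timm21, which links import to the chain, rose by 0.21 (adjusted p = 0.0329) and Tomm6, of the outer membrane channel, fell by 0.17 (adjusted p = 0.0441). Both calls were lost with any 1 array left out, at adjusted p from 0.0643 to 0.146. That of Timm21 was also lost after median centring, at 0.0529. The chaperone Hspd1 differed by 0.14 (adjusted p = 0.125).

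The mitochondrial ribosome makes the subunits encoded in mitochondrial DNA. Of 74 of its genes, 1 fell and 0 rose (median -0.04). The mean was lower in GPS2KO for 53 of them, against 53.6% of all tested genes. Mrpl52 measured 11.307, 11.196 and 11.196 in WT and 10.904, 10.754 and 10.895 in GPS2KO. It fell by 0.38 (SE 0.0562, adjusted p = 0.00742), with adjusted p up to 0.0276 when any 1 array was left out. Mrpl27 (-0.19, adjusted p = 0.0712) and Mrpl58 (-0.17, 0.0762) did not pass. Without WT replicate 2, 3 genes of the list fell and 1 rose. None of 17 genes of cristae and mitochondrial dynamics passed (median -0.01). The fission factor Fis1 differed by -0.17 (adjusted p = 0.073), the cristae protein Chchd6 by -0.13 (0.167) and the fusion protein Opa1 by 0.11 (0.18).

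The 10 tested genes of adenine nucleotide transport, uncoupling and ATPase inhibition had a median of 0.05, and the mean was lower in GPS2KO for 1 of them, Atpif1, the inhibitor of complex V (-0.07, adjusted p = 0.317). None passed, the lowest p belonging to the outer membrane channel Vdac2 (0.14, adjusted p = 0.093), and the phosphate carrier Slc25a3 differed by 0.10 (adjusted p = 0.324). None of 15 genes of cell division passed (median -0.01): Cdk1 differed by 0.16 (adjusted p = 0.0629), Ccnb2 by -0.16 (0.0695) and Rrm2 by 0.14 (0.196).

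**Figure D5:**
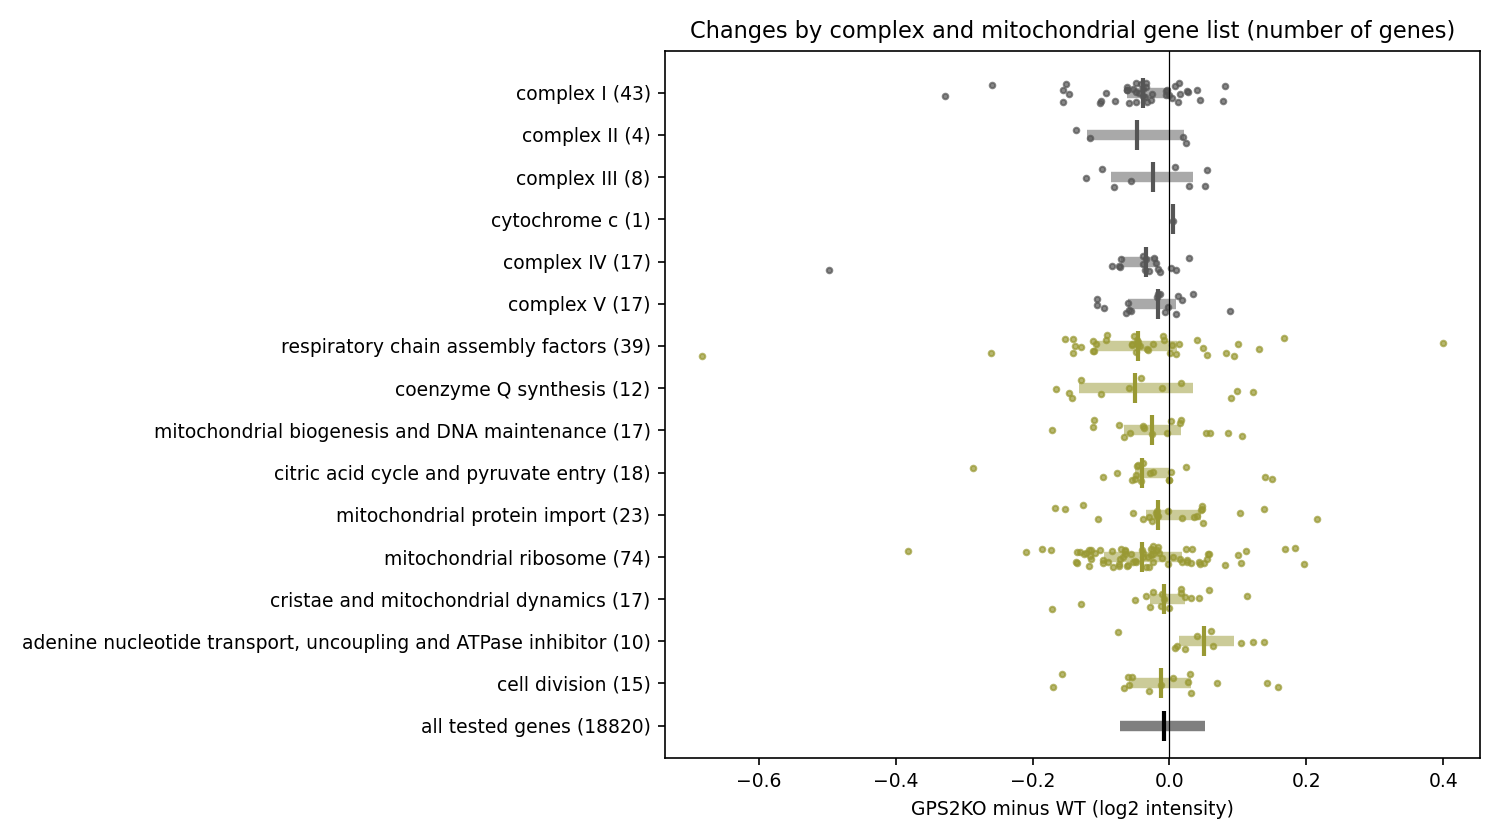
Changes (GPS2KO minus WT, log2 intensity, x axis) of the genes of each complex and each list (y axis, number of genes in parentheses); points are genes, the tick is the median and the bar spans the quartiles, and all tested genes are drawn without points. Medians lie between -0.05 and 0.05, with Cox7a1 (-0.50), Ndufaf3 (-0.33), Lyrm7 (-0.68), Mrpl52 (-0.38) and Tmem126b (0.40) standing apart.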

How the data were processed

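Total RNA from 6 macrophage cultures was hybridized to Affymetrix arrays. The deposited values are log2 intensities, 1 per probe set and array, made by the authors with RMA in the R package oligo, per the submitters' processing notes. RMA equalizes the distributions of the arrays, which hides any shift common to most genes, and background compresses folds of dim genes. Of 35556 probe sets, the platform annotation deposited at GEO (possibly outdated) gave 1 symbol for 21218, several for 1881 and did not list 12457. The probe set of highest mean stood for a gene. All 90 members matched RefSeq (GRCm38.p6) by gene number, and 0 symbols differed.

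Groups came from sample titles. All 18820 genes were fitted with limma 3.58.1 in R 4.3.3 (lmFit, eBayes, group as the only term, 2-sided) and adjusted by Benjamini-Hochberg over all of them. The members and lists were chosen with earlier results of these data known. The rule named members past the threshold, the 3 of smallest p per complex, isoform sets, the Sdh genes, Cycs, Cyc1 and up to 3 genes of smallest p per list. Other members, such as further Ndufaf genes, Ndufv1, Ndufs1, Ndufb7, Ndufb2, Atp5k, Cox8b and Cox7b2, and the chromosomal neighbours were added after their values were seen. The shorter NRF1 core was searched after the longer form had given no match in Cycs. The number of arrays limits the precision.

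On simulated data for GPS2KO against WT with 18820 genes, a planted log2 change of 0.3 was called by limma in 52% of 50 genes, one of 0.5 in 86% of 50 and one of 1 in 100% of 50, besides 8 unchanged genes. Alternatives were quantile normalization, median centring, a variance trend, robust variances, no dim genes, the mean of a gene's probe sets, the replicate number as a block and each array left out; testing every probe set with 1 symbol was added after the data were seen.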

Additional observations from a re-analysis of the deposited data

How the results depend on the processing

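Cox7a1 and Ndufaf3 fell under each of the 7 alternatives and with each array left out, with adjusted p up to 0.0312 and 0.0186 under the alternatives, the replicate block included. Gps2 fell throughout (-0.783 to -0.72 with an array left out). No member rose under any setting. The number of members that fell was 8 with the variance trend and 4 without dim genes, 2 to 3 with an array left out. In complex I it was 3 with the trend and 2 without dim genes, 1 to 2 with an array left out. In complex II it was 2 and 1, and in complex V 2 with the trend. Median centring moved the median difference of the members to -0.058, of complex I to -0.062, of complex IV to -0.058 and of complex V to -0.041; with an array left out these ran from -0.046 to -0.013, -0.053 to -0.014, -0.048 to -0.01 and -0.026 to -0.003, and those of complexes II and III from -0.07 to -0.04 and -0.057 to -0.006. Over all genes 2174 passed with the trend, 1962 without dim genes, where fewer genes are tested, and 749 to 842 with an array left out, against 1265. Other causes were not tested.

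Among the lists, assembly factors had 4 falls without dim genes and 1 to 2 with an array left out. The mitochondrial ribosome had 6 falls with the trend and 3 after centring or without dim genes, and 1 rise with the trend or without dim genes. The citric acid cycle had 2 rises with the trend or without dim genes and 1 with the mean of probe sets. Import had 0 rises after centring and 2 with the trend. Coenzyme Q and biogenesis had 1 fall each after centring or without dim genes, cristae 1 fall there and with the trend, nucleotide transport 1 rise with the trend or without dim genes and 1 fall with the trend, and cell division 2 rises with the trend, 1 without dim genes, and 1 fall with each of centring, trend and no dim genes. Under the replicate block 862 genes passed and 2 members fell, Cox7a1 and Ndufaf3. The calls of Higd1a (adjusted p = 0.0852), Timm21 (0.0627), Tomm6 (0.102) and Wdr6 (0.0595) were lost. So were those of the macrophage marker Itgam (0.0722) and the stromal markers Thy1 (0.0592), Col1a1 (0.0657) and Dcn (0.0799). The deviations of same-numbered arrays had correlations of 0.003, 0.026 and -0.006, and 2 of 6 arrays correlated best with their own number. These values showed no pairing, but 3 arrays a group are too few to decide the question. The median deviations of the members had the same order by replicate number in both groups. Whether the numbers pair the samples is therefore not known. Adjusted p-values near the threshold are limited by 3 arrays a group.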

Other observations

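A further 9 probe sets carry several symbols of which at least 1 meets the rule for respiratory chain genes, and they are not named here. Among all 35556 probe sets 0 of them passed in limma, 0 had an unadjusted p under 0.05, and their changes ran from -0.06 to 0.05.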
